A study of Homo sapiens with 4 samples.

Results

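ATF4, the stress-response factors around it and the activin subunit gene INHBE were examined in RNAseq of IMR-32 cells, a human neuroblastoma line in which MYCN is amplified. The 10 genes were taken by name from a fixed list (ATF4, ATF5, ATF3, CEBPB, CEBPG, DDIT3, TRIB3, DDIT4, SESN2 and INHBE) out of 60612 genes in the count table, of which 17537 held enough reads to be tested. All 10 were among them. They had been picked with this knockdown contrast in view, so their own fold changes are given as a description with a standard error (SE), and so are the counts of them past the thresholds used for all genes. Cells had been stably transduced with a short hairpin RNA that is switched on by doxycycline, and both groups received doxycycline at 1 µg/mL for 48 h. In shNeuroD1 (2 libraries) the hairpin targets NeuroD1, and in shControl (2 libraries) it is a control, in cells whose genotype field reads WT. The study designed more than 1 NeuroD1 hairpin, and the sheet name of its supplementary gene table points to a single one for both knockdown libraries, so effects of that hairpin and of NeuroD1 loss cannot be told apart. Whether the libraries of 1 group came from separate cultures is not in the labels, and p-values then measure only the spread between these libraries, which may be technical.

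ATF4 is a transcription factor of the integrated stress response. Kinases that sense amino acid shortage, unfolded protein, heme loss or viral RNA phosphorylate the initiation factor eIF2α, which slows translation in general and lets the ATF4 message be read past its upstream start codons. ATF4 protein then pairs with C/EBP factors and switches on genes for amino acid uptake and synthesis, tRNA charging and redox balance, and, when stress lasts, genes linked to cell death. In neuroblastoma with amplified MYCN this program is known for its tie to the high demand for amino acids.

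The libraries held 14665210 to 16482463 counts, and mitochondrial genes took 4.37% to 4.59% of them in shControl and 5.39% to 5.51% in shNeuroD1. NEUROD1, the targeted gene, stood at 418.9 and 414.5 CPM (counts scaled to library size by TMM) in shControl and at 63.7 and 58.2 CPM in shNeuroD1, or 14.6% of the control mean. By the mean over the 4 libraries, all 12 adrenergic neuroblastoma markers reached 1 CPM, and their sum was 4288 to 4394 CPM in shControl and 4120 to 4137 CPM in shNeuroD1. Of 8 Schwann or mesenchymal markers, 5 reached 1 CPM, with TWIST1 highest, 1 was at 0 in every library, and their sum was 230.4 to 230.9 CPM against 155.2 to 160.1 CPM. By that mean none of 4 leukocyte and none of 4 epithelial markers reached 1 CPM, and 2 in each list were at 0. The leukocyte sum was 0.204 to 0.315 CPM against 0.131 to 0.592 CPM, and the epithelial sum 0.0678 to 0.189 CPM against 1.44 to 1.84 CPM. EPCAM made up most of the sum in shNeuroD1, at 0 and 0.0630 CPM in shControl and above 1 CPM in both shNeuroD1 libraries (1.84 and 1.38). The part of these shifts in the results was not tested.

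All 10 genes were lower in shNeuroD1. Both shNeuroD1 libraries lay below both shControl libraries for 10 of 10 genes, against 37.7% of all tested genes. The adjusted p was under 0.05 with a lower level for 10 of 10, against 28.2% of all tested genes, and 0 of 10 were higher at that threshold, against 26.8%. Of the 10, 5 (INHBE, ATF3, ATF4, ATF5 and CEBPB) also had a log2 fold change under -1, against 5.14%. Since the genes were chosen on this contrast, nothing is read from these shares. The log2 fold changes ran from -5.80 in INHBE to -0.33 in TRIB3, with a median of -0.91, or -0.80 without INHBE, while the median of all tested genes was 0.01. ATF5 at -1.03 and CEBPB at -1.02 lay just inside the limit of -1, and CEBPG at -0.80 and SESN2 at -0.79 lay just outside it. In bulk RNA, fewer cells that express a gene and less of its RNA per cell cannot be told apart.

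**Figure D1:**
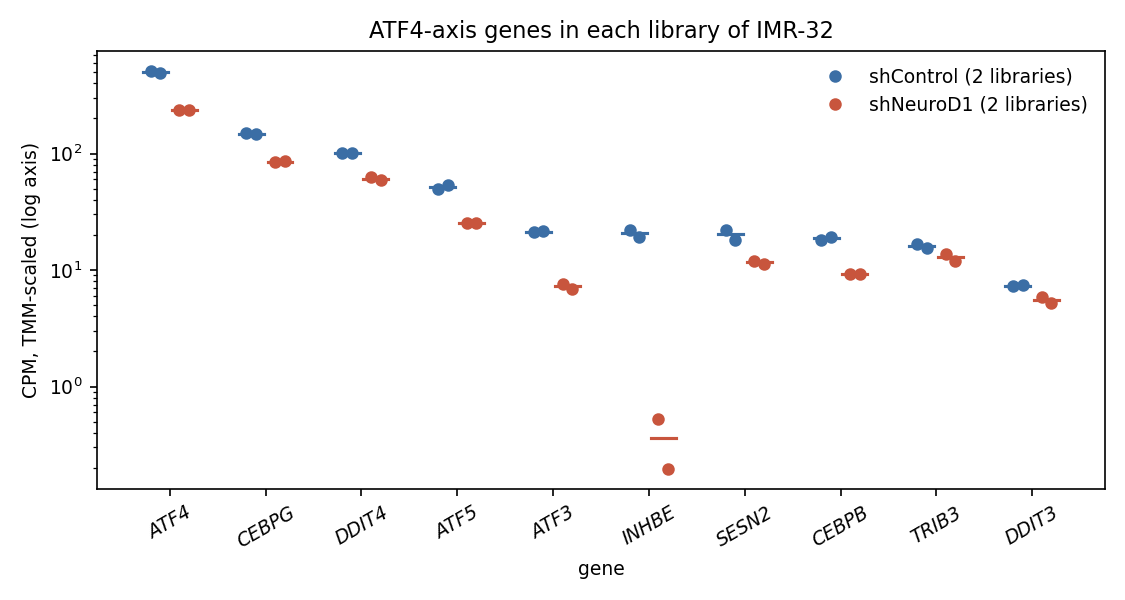
TMM-scaled CPM on a log axis for the 10 genes in each of the 4 libraries, with points for libraries and short lines for group means, ordered by the shControl mean. Both shNeuroD1 points lie below both shControl points for each gene, by the widest gap in INHBE (22.2 and 19.1 CPM against 0.526 and 0.197 CPM).

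ATF4 (ENSG00000128272, GRCh38 chromosome 22, 39519695 to 39522685, plus strand), the factor the program is named for, was read 7576 and 7781 times in shControl, against 3621 and 3618 times in shNeuroD1. That is 514.0 and 490.0 CPM against 238.0 and 237.6 CPM. The groups were far apart relative to their spread, and the shNeuroD1 mean was 47.4% of the control mean, a log2 fold change of -1.08 (SE 0.0423). ATF5 (ENSG00000169136, chromosome 19, 49928702 to 49933935, plus strand), a close relative of ATF4 that is also translated under stress and acts in the mitochondrial stress response, was at 49.7 and 53.7 CPM in shControl and at 25.3 and 25.5 CPM in shNeuroD1. Its groups did not overlap, and the mean was 49.1% of control, a log2 fold change of -1.03 (SE 0.0760). NUP62 lies on the opposite strand and shares 1062 bases with ATF5. It was itself lower, with a log2 fold change of -0.64, and since the use of strand in counting is not stated, the ATF5 reads are uncertain to that extent.

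ATF3 (ENSG00000162772, chromosome 1, 212565334 to 212620777, plus strand), a stress-induced factor that ATF4 switches on, was at 21.2 and 21.5 CPM in shControl and at 7.63 and 6.90 CPM in shNeuroD1. Both shNeuroD1 libraries were far below the control pair. The mean was 34.1% of control and the log2 fold change -1.55 (SE 0.125), the lowest of the 10 after INHBE.

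The C/EBP factors that pair with ATF4 were lower as well. CEBPG (ENSG00000153879, chromosome 19, 33373330 to 33382686, plus strand), a partner of ATF4 on amino acid genes, was at 150.8 and 146.2 CPM in shControl and at 84.6 and 86.0 CPM in shNeuroD1, 57.4% of control, with a log2 fold change of -0.80 (SE 0.0503). CEBPB (ENSG00000172216, chromosome 20, 50190734 to 50192689, plus strand), a factor of inflammation, metabolism and stress, was at 18.1 and 19.2 CPM against 9.20 and 9.26 CPM, 49.5% of control, with a log2 fold change of -1.02 (SE 0.122). Neither gene's groups overlapped, and for both the gap was several times the spread of the libraries. The antisense gene CEBPB-AS1 overlaps CEBPB by 765 bases. It drew 12 counts in each shControl library and 23 and 9 in shNeuroD1, against 267 to 305 and 140 to 141 counts of CEBPB, so the antisense gene drew far fewer reads.

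DDIT3, TRIB3, DDIT4 and SESN2 lie downstream of ATF4. DDIT3 (ENSG00000175197, chromosome 12, 57516588 to 57521737, minus strand) codes for CHOP, the factor tied to cell death in prolonged stress, and its counts were 108 and 117 in the control libraries and 90 and 79 after knockdown. These are 7.33 and 7.37 CPM against 5.92 and 5.19 CPM, 75.6% of control, with a log2 fold change of -0.40 (SE 0.173). DDIT3 was the gene of the 10 with the fewest shControl counts. It shares 982 bases with MARS1 and 1028 bases with MBD6, both on the opposite strand. Per kb of exon, MARS1 went from 61.4 to 30.1 CPM and DDIT3 from 5.62 to 4.25 CPM, so MARS1 was the far more abundant RNA in both groups, and the part of its reads in the DDIT3 values was not tested. MBD6 had a log2 fold change of -0.14 that did not pass (edgeR adjusted p 0.0817).

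TRIB3 (ENSG00000101255, chromosome 20, 362835 to 397559, plus strand), a pseudokinase that feeds back on ATF4 and restrains AKT, drew 248 and 245 counts without knockdown and 209 and 181 with it. In CPM this was 16.8 and 15.4 against 13.7 and 11.9. The libraries did not overlap, but the gap between the nearest ones was about the size of the spread within a group. The mean was 79.4% of control and the log2 fold change -0.33 (SE 0.120), the smallest shift of the 10. DDIT3 and TRIB3 were also the genes whose adjusted p was over 0.05 in DESeq2 (0.305 and 0.193) and under scaling by library size alone (0.154 and 0.124).

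DDIT4 (ENSG00000168209, chromosome 10, 72273920 to 72276036, plus strand), also called REDD1, and SESN2 (ENSG00000130766, chromosome 1, 28259527 to 28282491, plus strand) both restrain the growth kinase mTORC1 under stress. DDIT4 was at 101.9 and 101.1 CPM in shControl and at 63.0 and 59.0 CPM in shNeuroD1, 60.1% of control, with a log2 fold change of -0.73 (SE 0.0564). SESN2 was at 22.3 and 18.2 CPM against 11.96 and 11.36 CPM, 57.7% of control, with a log2 fold change of -0.79 (SE 0.120). Both pairs of groups were apart, although the shControl libraries of SESN2 differed from each other more than those of any other gene of the 10, with an SD of 14.2% of their mean.

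INHBE (ENSG00000139269, chromosome 12, 57452323 to 57459280, plus strand) codes for the beta E subunit of activin, a secreted factor of the TGF-beta family made mainly in liver. Its counts were 327 and 304 in shControl, 8 in shNeuroD1 replicate 1 and 3 in shNeuroD1 replicate 2, or 22.2 and 19.1 CPM against 0.526 and 0.197 CPM. Both shNeuroD1 libraries held a handful of reads, far below either shControl library. The 11 counts of shNeuroD1 against 631 of shControl put it at 1.75% of control, with an exact 95% interval of 0.871% to 3.16% that covers counting error only, or 31.7-fold to 114.8-fold lower. Its log2 fold change of -5.80 (SE 0.25) was the fifth lowest of all 17537 tested genes. On so few counts it depended on the library, at -6.65 when shNeuroD1 replicate 1 was left out and -5.27 when shNeuroD1 replicate 2 was.

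Per length of exon, the order of the 10 genes changed little at the top and more at the bottom. In shControl the levels in CPM per kb of exon were 199.7 ± 6.75 (SD, n = 2) for ATF4, 49.3 ± 0.285 for DDIT4, 33.7 ± 0.736 for CEBPG, 17.5 ± 0.954 for ATF5 and 9.54 ± 0.395 for CEBPB. INHBE (6.85 ± 0.713), SESN2 (5.86 ± 0.830) and DDIT3 (5.62 ± 0.0220) followed, and in this order INHBE overlapped SESN2 and SESN2 overlapped DDIT3. ATF3 (5.28 ± 0.0536) and TRIB3 (4.70 ± 0.288) were lowest. In shNeuroD1 the first 5 places were held by the same genes in the same order, from 94.6 ± 0.120 for ATF4 to 4.72 ± 0.0205 for CEBPB. DDIT3 (4.25 ± 0.394), TRIB3 (3.73 ± 0.381) and SESN2 (3.38 ± 0.123) came next, with overlap between neighbours, then ATF3 (1.797 ± 0.128) and INHBE (0.120 ± 0.0771).

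Promoter sequence was searched because the genes were lower together. RefSeq (GRCh38.p14) gave 18 windows for 9 of the 10 genes, each from 250 bases before a transcript start to 50 bases after it, and some of a gene's windows overlap. INHBE was not matched. Both strands were searched for 5 motifs. TGATGNAA, the composite element that ATF4 with a C/EBP partner binds, lay in 2 of the 18 windows, in CEBPG and ATF3, and in 3.62% of 35116 windows of all genes. CAGATG, the E-box form that NeuroD1 prefers, lay in 3 windows of ATF4 and ATF3 and in 14.7% of all windows. The AP-1 element TGANTCA lay in 3 windows of ATF5 and DDIT3 and in 7.71% of all windows. The cAMP response element TGACGTCA (1.85% of all windows) and the ER stress element, CCAAT and CCACG with 9 bases between them (0.0769%), lay in none of the 18. The ATF4 window at chr22:39520309-39520608 and the CEBPG window at chr19:33373863-33374162, both plus strand, are shown for the factor itself and for the partner whose window holds the composite element, with matches in capitals.
ATF4: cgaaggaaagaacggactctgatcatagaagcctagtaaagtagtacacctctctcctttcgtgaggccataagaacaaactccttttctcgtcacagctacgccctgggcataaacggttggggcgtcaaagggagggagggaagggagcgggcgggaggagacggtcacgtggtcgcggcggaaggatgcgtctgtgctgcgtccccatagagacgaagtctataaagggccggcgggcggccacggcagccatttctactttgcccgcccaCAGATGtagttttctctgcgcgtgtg
CEBPG: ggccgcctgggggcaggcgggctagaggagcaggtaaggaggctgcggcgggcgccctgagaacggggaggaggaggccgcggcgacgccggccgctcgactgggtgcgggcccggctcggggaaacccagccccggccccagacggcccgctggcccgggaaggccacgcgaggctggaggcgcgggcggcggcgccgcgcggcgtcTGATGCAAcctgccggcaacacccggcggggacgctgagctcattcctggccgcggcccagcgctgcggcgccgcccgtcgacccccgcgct
In ATF4 the capitals mark CAGATG, which begins 24 bases after the transcript start. In CEBPG they mark TGATGCAA, which begins 42 bases before a start that lies downstream of the other RefSeq start of the gene. A match is a run of letters and no evidence of binding.

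The deposited FPKM values of assembled transcript starts were used to find the start of each gene with the highest summed FPKM. For DDIT4, SESN2 and ATF5 this leading start was a RefSeq start itself, and for CEBPG it lay 24 bases before one. In shNeuroD1 replicate 1, however, 80.6% of ATF5 FPKM lay at another start (49928702) and 18.5% at the leading one. For CEBPB it lay 19 bases after a RefSeq start and was listed in shNeuroD1 replicate 2 alone. For TRIB3 it lay 274 bases, for ATF4 864 bases and for ATF3 6390 bases before the nearest RefSeq start. The ATF4 window printed above is therefore not that of the leading ATF4 start. Nor is the CEBPG window, as 100% of CEBPG FPKM lay at the leading start near the other RefSeq start, whose window held no match. The matches in ATF3 and ATF5 lay in windows of starts (212565407 and 49928906) other than the leading ones (212608628 and 49929205). The ATF5 start at 49928702 lies inside its window with a match. In DDIT3 the leading start, in shNeuroD1 replicate 2 alone, lay 1485 bases from the nearest RefSeq start. A start inside the printed ATF4 window (position 39520564) took 0.0973% and 0.102% of ATF4 FPKM in shControl and 4.38% and 2.01% in shNeuroD1. It was higher in both knockdown libraries but a small share in each.

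Summed over starts, the FPKM of most of the genes moved as the counts did. ATF3 was at 6.78 and 5.69 FPKM in shControl and at 2.98 and 2.40 in shNeuroD1, and INHBE was at 6.39 and 4.78 against 0 and 0.229. Of the 0.229 FPKM of INHBE, 0.205 lay at a start inside the neighbouring gene INHBC. DDIT4 (48.2 and 46.9 against 34.1 and 32.2), CEBPG (26.2 and 25.1 against 16.1 and 17.5), SESN2 (3.68 and 3.33 against 2.45 and 2.20) and TRIB3 (5.57 and 4.98 against 4.31 and 3.89) were lower without overlap. ATF5 was listed under the ID of MIR4751, a microRNA within it, and was at 19.3 and 20.9 FPKM against 9.10 and 8.72. DDIT3, listed under MIR616 (0.642 FPKM), and CEBPB (0.426 FPKM) had a start in shNeuroD1 replicate 2 alone, although both genes had counts in all libraries.

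ATF4 itself did not follow its counts in these files. The FPKM of ATF4 came to 80.8 and 46.2 in shControl, against 84.9 and 74.4 after knockdown, so the shControl libraries differed from each other by more than the groups did. Limma on log2(FPKM + 1) gave a log2 fold change of 0.37 (adjusted p 0.490), against -1.08 in the counts. The assembly split ATF4 between starts 23 bases apart, and the first of them took 72.4% of ATF4 FPKM in shControl replicate 1 and 7.999% in shControl replicate 2, against 22.7% and 7.58% in shNeuroD1. Shares this unequal within a group leave no difference between groups to be described. How the FPKM values were assembled is not given in the sources used here.

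**Figure D2:**
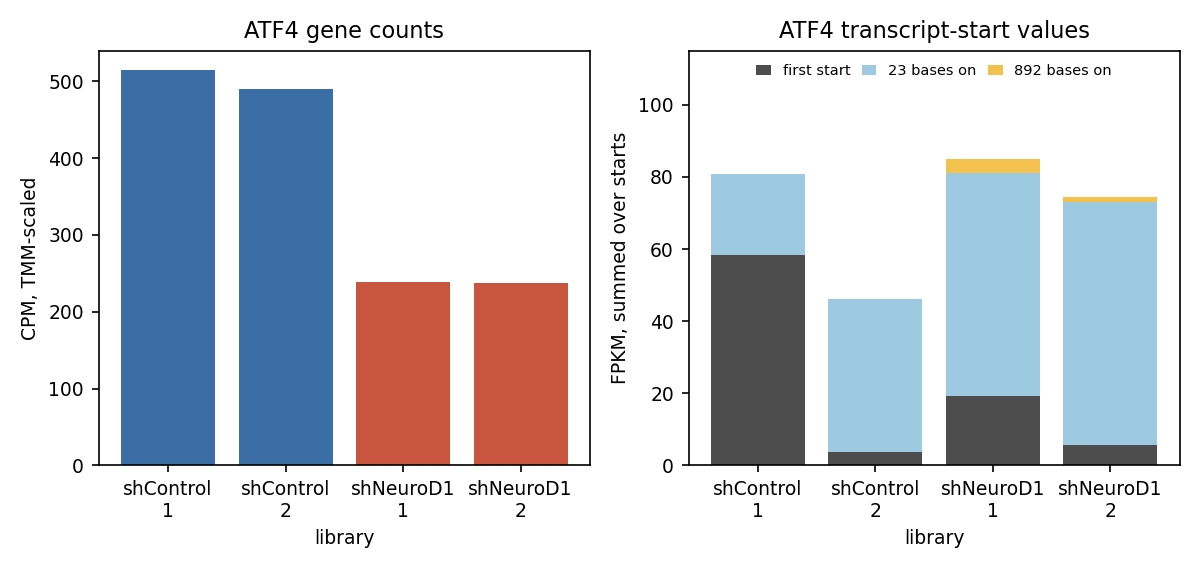
ATF4 in each library as TMM-scaled CPM from gene counts (left) and as FPKM stacked by transcript start (right, starts named by their distance from the first). Gene counts give 514.0 and 490.0 CPM in shControl and 238.0 and 237.6 CPM in shNeuroD1, while FPKM is 80.8 and 46.2 in shControl and 84.9 and 74.4 in shNeuroD1, with unequal shares of the first start.

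Upstream start codons, through which stress raises translation of ATF4, were counted in the leader of the principal GENCODE 29 transcript. ATF4 had 7 ATG in a leader of 882 bases, ATF5 had 6 in 582, CEBPG had 3 in 662 and DDIT3 had 2 in 209. ATF3, SESN2 and INHBE had 1 each, and CEBPB and DDIT4 had 0, while TRIB3 had no such entry. Among 9336 tested genes with an entry, 54.7% had at least 1 and 23.6% had 3 or more, in leaders with a median of 216 bases. The levels here are of RNA, and protein was not measured.

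The regulators above ATF4 were mixed. Of 14 genes for the eIF2α kinases, their phosphatases, eIF2α and its exchange factor eIF2B, 7 were lower, 1 was higher and 6 did not pass (edgeR quasi-likelihood test, adjusted p under 0.05 over all tested genes), with a median log2 fold change of -0.15. For this and the lists that follow, 28.2% of all tested genes were lower and 26.8% higher by the same rule, with a median of 0.01. PPP1CA, a catalytic subunit of the phosphatase, had a log2 fold change of -0.75. PPP1R15A (GADD34) and PPP1R15B (CReP), the subunits that bring the phosphatase to eIF2α, had log2 fold changes of -0.58 and -0.48. These 3 had an adjusted p of 8.6e-13, 4.3e-06 and 5.0e-11. PPP1CC, another catalytic subunit, had a higher mean (264.1 CPM in shControl, against 89.9 CPM for PPP1CA). It was at 276.7 CPM in shNeuroD1, and its log2 fold change of 0.07 did not pass (edgeR adjusted p 0.200). The kinases split, as EIF2AK3 (PERK) was lower at -0.33 (adjusted p 0.00022) and EIF2AK2 (PKR) higher at 0.38 (adjusted p 6.3e-08), while EIF2AK1 (HRI, 0.02) and EIF2AK4 (GCN2, 0.09) did not pass (adjusted p 0.745 and 0.191). These kinases were singled out after their values were seen.

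Of 44 other genes that ATF4 is known to switch on, 41 were tested, 39 were lower, 1 was higher and 1 did not pass, with a median log2 fold change of -0.99. Of those tested, 20 were lower past both thresholds, against 5.14% of all tested genes. Earlier results for many of them were known when the list was written, so these counts are not independent evidence of its direction. SLC7A3, an arginine transporter, went from 9.52 ± 1.85 to 0.690 ± 0.0460 CPM (SD, n = 2 each), a log2 fold change of -3.78 (edgeR adjusted p 1.2e-13). SLC7A11, the cystine transporter xCT, was at 100.3 and 114.4 CPM against 8.15 and 9.46 CPM, or -3.61 (edgeR adjusted p 2.0e-25). CHAC1, which degrades glutathione, went from 28.0 ± 0.232 to 3.71 ± 0.323 CPM, or -2.91 (edgeR adjusted p 2.1e-18). ALDH18A1, of proline synthesis, was higher at 0.13 and KLHL24 did not pass at -0.04. NUPR1, FGF21 and GDF15 held too few reads to test.

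By function, and grouped after the values were known, 12 of 12 tRNA synthetase genes were lower, from -1.15 in CARS1 to -0.19 in LARS1. So were 9 of 9 amino acid transporter genes, from -3.78 in SLC7A3 to -0.52 in SLC38A2, and 6 of 6 genes of serine synthesis and one-carbon metabolism, from -1.88 in PHGDH to -0.58 in ALDH1L2. Of the 14 further genes tested, 12 were lower and 1 higher.

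Neighbouring pathways that share genes or triggers with ATF4 were mixed. Of 22 ATF6 and XBP1 outputs of the endoplasmic reticulum, 8 were lower and 6 higher, with a median of -0.01. XBP1, itself a factor of the unfolded protein response, had a log2 fold change of -1.07, HERPUD1, of protein degradation, -0.69, and ERN1, the sensor that splices XBP1, -0.42 (edgeR adjusted p 1.3e-16, 4.7e-09 and 0.00013). Among the 6 higher genes, HSPA5 rose from 239.4 to 317.0 CPM as group means, a log2 fold change of 0.41 (edgeR adjusted p 9.1e-10). Of 18 p53 outputs, 5 were lower and 8 higher, with a median of 0.18. TP53I3 (2.14) and BBC3 (1.11), both linked to cell death, were higher, and GADD45A, which is also induced by stress, was lower at -1.11 (edgeR adjusted p 4.3e-24, 1.1e-07 and 2.1e-15).

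Of 17 immediate early genes tested out of 22, 12 were lower and 1 higher, with a median of -0.29. FOSB (-3.06), EGR1 (-2.39) and NR4A3 (-1.17), factors that growth signals and stress switch on within minutes, shifted most, as log2 fold changes (edgeR adjusted p 1.2e-08, 3.8e-20 and 6.5e-05). Of 23 mTORC1 regulators tested out of 24, the pathway DDIT4 and SESN2 act on, 6 were lower and 6 higher, with a median of -0.03. MIOS (0.98) and RRAGB (0.96), which relay amino acid supply to the kinase, were higher, and EIF4EBP1, a brake on translation and a known ATF4 output, was lower at -0.78 (edgeR adjusted p 9.2e-17, 1.4e-10 and 2.0e-13).

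**Figure D3:**
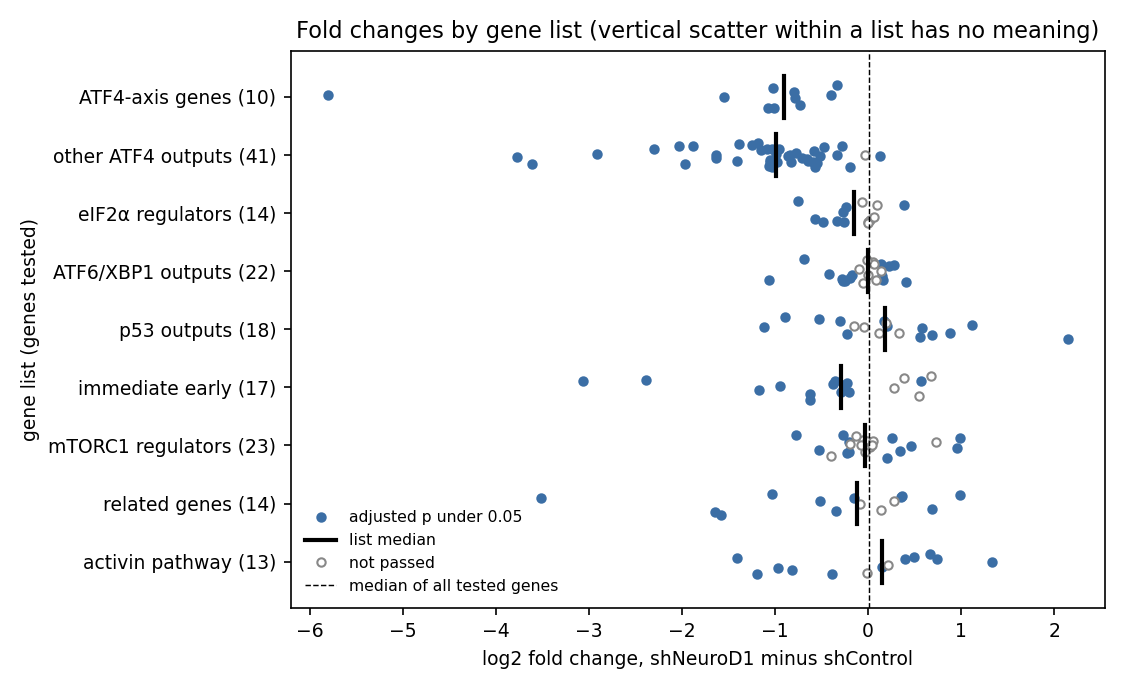
Log2 fold change of each tested gene (points, filled where the adjusted p was under 0.05) in the 10 genes and 8 further lists, with list medians as bars and the median of all tested genes (0.01) as a dashed line. The medians are -0.91 for the 10 genes and -0.99 for the other ATF4 outputs, and between -0.29 and 0.18 for the rest.

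Genes of the families of the 10 were not uniformly lower. Of 20 ATF, C/EBP, sestrin, tribbles and inhibin family genes, 14 were tested, 7 were lower, 4 were higher and 3 did not pass, with a median of -0.12. CEBPZ, lower at -0.52, shares its name but not its family with the C/EBP factors, and without it 6 of 13 tested genes were lower and 4 higher, with a median of -0.09. The inhibin subunit genes INHBA (1.97 ± 0.288 against 0.164 ± 0.0463 CPM, SD, n = 2 each, log2 fold change -3.51) and INHBC (-1.65) and the C/EBP gene CEBPD (-1.58) shifted most (edgeR adjusted p 1.5e-06, 0.00036 and 1.2e-08). The 4 higher genes, named after their values were seen, were CEBPA, SESN1, SESN3 and TRIB2. CEBPA, a C/EBP factor of differentiation, rose from 1.64 ± 0.364 to 3.25 ± 0.137 CPM (SD, n = 2 each), a log2 fold change of 0.99 (edgeR adjusted p 0.0038), and so went against CEBPB, CEBPG and CEBPD. SESN1 (0.69) and SESN3 (0.36), relatives of SESN2, and TRIB2 (0.35), a relative of TRIB3, had an edgeR adjusted p of 5.1e-08, 4.3e-05 and 8.4e-07.

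The receptors through which activins act were mixed too. Of 13 activin pathway genes tested out of 15, 5 were lower and 6 higher, with a median of 0.14. TGFBR3 (-1.41), a co-receptor that binds inhibin, and ACVR1C (-1.19), the receptor ALK7 through which activin E is known to act, were lower, from means of 4.72 and 2.19 CPM in shControl to 1.77 and 0.953 CPM in shNeuroD1 (edgeR adjusted p 4.1e-05 and 0.0055). ALK, with a log2 fold change of 1.33, was listed for its name, which resembles those of the activin receptor-like kinases. It is a receptor tyrosine kinase and no activin receptor, and without it 5 of 12 tested genes were lower and 5 higher, with a median of 0.065.

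INHBE and DDIT3 lie 57307 bases apart on chromosome 12, which allowed the genes around them to be compared. Of the genes next to INHBE, INHBC (57434760 to 57450828) drew 47 and 32 counts in shControl against 12 and 13 in shNeuroD1, and GLI1 (57460135 to 57472262), the effector of Hedgehog signalling, had 49 and 43 against 9 and 5. Both pairs of groups were apart, on few counts, with log2 fold changes of -1.65 and -2.69 (edgeR adjusted p 0.00036 and 9.1e-07). The FPKM files place starts of the INHBE locus at 57434784 and 57442090, inside INHBC, so reads of these neighbours may not be fully separated. The start at 57434784 was seen in shNeuroD1 replicate 2 alone, where it took 89.5% of INHBE FPKM. The start at 57442090 was seen in shControl replicate 2 alone, where it took 10.7%.

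Farther out the direction changed from gene to gene. R3HDM2 (0.55) and KIF5A (0.95) were higher, MARS1 (-1.03), DCTN2 (-0.44) and PIP4K2C (-0.30) were lower, as log2 fold changes (edgeR adjusted p 1.3e-08, 1.2e-15, 8.7e-20, 2.2e-09 and 0.0059). ARHGAP9 (0.31), MBD6 (-0.14), DTX3 (-0.02), ARHGEF25 (0.05), SLC26A10P (-0.11) and the unnamed gene ENSG00000224713 (-0.06) did not pass. MARS1, the methionyl-tRNA synthetase, is also among the ATF4 outputs above.

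**Figure D4:**
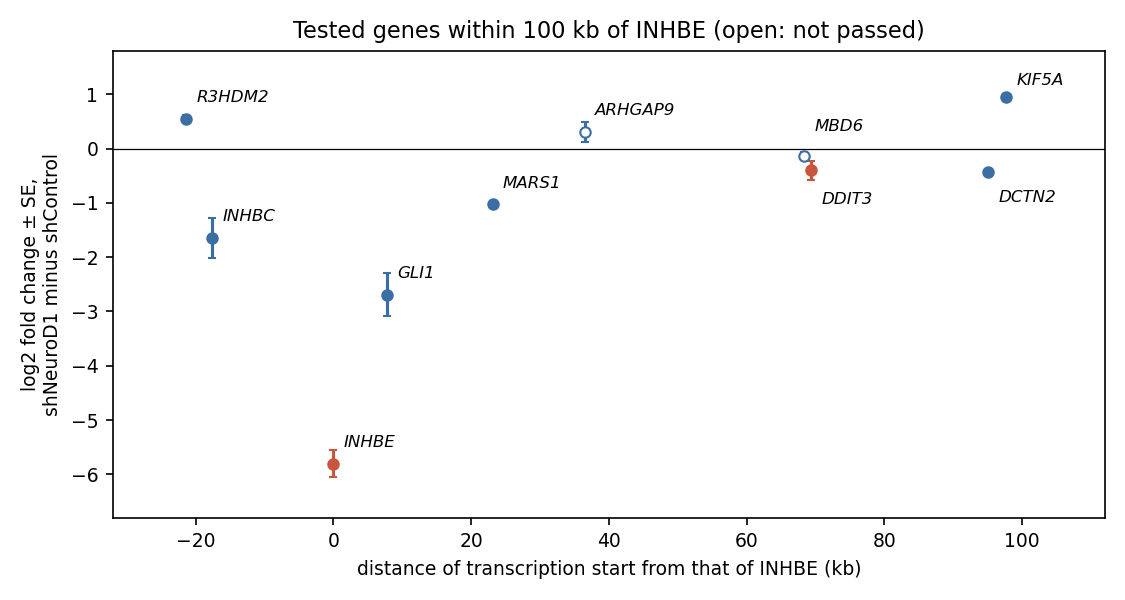
Log2 fold change with its SE for each tested gene within 100 kb of INHBE, against the distance of its transcription start from that of INHBE in kb, with open points where the adjusted p did not pass. INHBE lies at -5.80 between INHBC (-1.65) and GLI1 (-2.69), while R3HDM2 (0.55) and KIF5A (0.95) are above 0.

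The genes with the profiles most like ATF4 and INHBE were looked up among 10559 others with a mean of at least 10 CPM, by the Euclidean distance of centred log2 CPM over the 4 libraries. For ATF4 these were KIFC1 (0.0208), a kinesin of the mitotic spindle, GARS1 (0.0250), the glycyl-tRNA synthetase, and XBP1 (0.0285). KIFC1 went from 150.6 to 70.5 CPM, GARS1 from 381.9 to 179.8 CPM and XBP1 from 102.3 to 48.9 CPM as group means, close to the ratio of ATF4. For INHBE the distances were far larger, at 1.17 for NPTX1, a secreted synaptic protein, 1.31 for CCKAR, the cholecystokinin receptor, and 1.33 for NGFR, the neurotrophin receptor p75. NPTX1, at 4.14% of control, CCKAR at 4.94% and NGFR at 4.95% were each above the 1.75% of INHBE. MYCN, for reference, was at 2024.5 and 1944.6 CPM in shControl and at 1969.2 and 1979.7 CPM in shNeuroD1, within the spread of its libraries.

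How the fold changes of the 10 genes hold under other settings is shown together. Scaling by library size alone, which put the median of all genes at 0.12, left INHBE and ATF3 past both thresholds. In DESeq2 the median of the 10 log2 fold changes was -0.92. Without shControl replicate 2, ATF5 and CEBPB, both at -0.98, lay just outside the limit of -1. The ATF4 value stayed between -1.12 and -1.05 whichever library was left out.

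**Figure D5:**
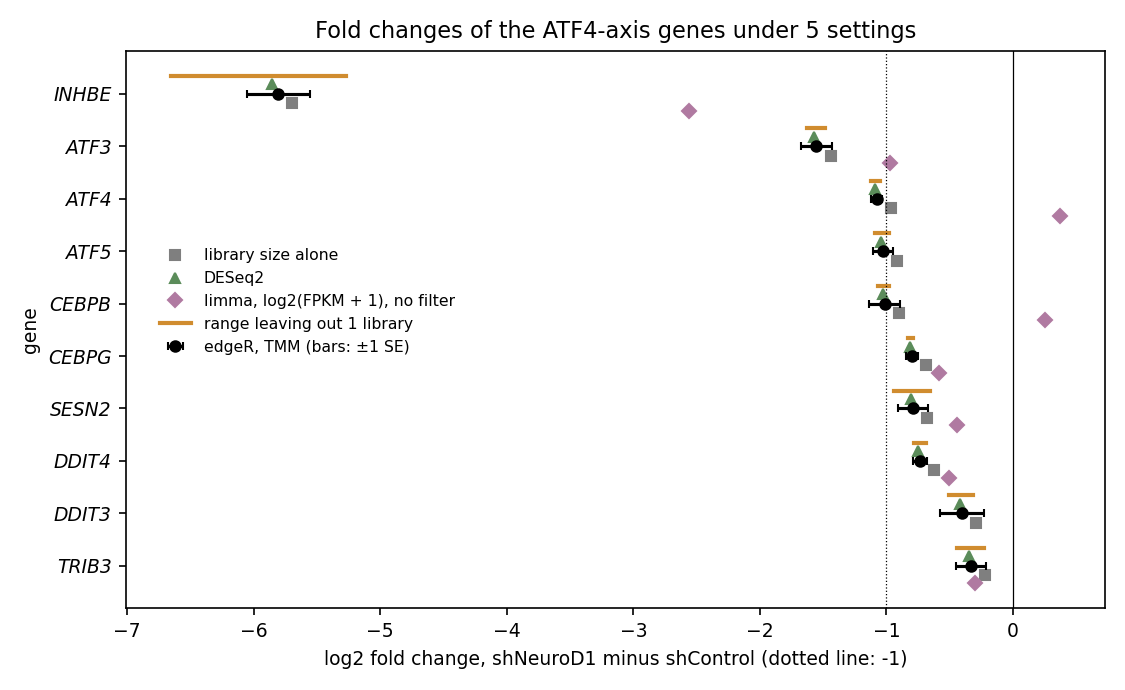
Log2 fold changes of the 10 genes in edgeR with TMM (points with SE), under library size alone, in DESeq2, in limma on log2(FPKM + 1) without a filter on the mean, and as the range when 1 library is left out, against a dotted line at -1. Each DESeq2 value lies within 1 SE of the edgeR value, library size alone moves each gene toward 0, leaving out 1 library moves INHBE from -6.65 to -5.27 and TRIB3 from -0.44 to -0.23, and the FPKM fit puts ATF4 (0.37) and CEBPB (0.26) above 0.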

How the data were processed

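RNAseq was measured in 4 libraries of IMR-32, grouped by the sample titles. Per the submitters' processing notes, reads were trimmed with cutadapt 1.9.1, aligned with HISAT2 2.0.1 to hg38 and counted with HTSeq 0.6.1. The authors deposited raw counts per Ensembl gene, whose use of strand is not stated, and, for each library, FPKM values of transcript starts, ends and splicing events, made with a tool that is not given in the sources used here. Coordinates of 58394 of 60612 gene IDs came from GENCODE 29.

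Counts were filtered (filterByExpr, minimum count 10), scaled by TMM and compared in edgeR 4.0.16 under R 4.3.3 by the two-sided quasi-likelihood test (glmQLFit, glmQLFTest), with Benjamini-Hochberg adjustment over 17537 genes. Calls past both thresholds have an adjusted p under 0.05 and lie beyond 1 in log2 fold change. The SE is the size of the log2 fold change divided by the square root of F. Gene FPKM is the sum over a gene's starts, with unlisted starts as 0. The smallest p that an exact permutation test on 2 against 2 libraries can give is 0.333, so none was run. Depth limits genes of few counts, such as INHBE in shNeuroD1.

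Alternatives were DESeq2 size factors, library size alone, no filter, a CPM mean of 1 or more, the Wald test of DESeq2 1.42.0, the replicate number as a block, limma 3.58.1 on log2(FPKM + 1) and log2(FPKM + 0.1) with a mean of at least 1 FPKM or no filter, an adjusted p alone, and leaving out each library, where the lone library was assumed to vary like the other group. The 10 genes and all lists were chosen with earlier results of these data known. By rule the text names, besides them, the 3 largest changes per list (adjusted p under 0.05, mean of at least 1 CPM), tested genes within 100 kb of INHBE or DDIT3, genes overlapping the 10, the 3 nearest profiles and MYCN. Other genes, such as the eIF2α kinases, PPP1CC, HSPA5, CEBPA, CEBPZ, SESN1, SESN3, TRIB2, ALDH18A1, KLHL24 and those at the ends of a group's range, were named after their values were seen. Lists that hold a gene in common (JDP2, PPP1R15A, EIF4EBP1, SESN1 and BTG2) count it in each.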

Additional observations from a re-analysis of the deposited data

How the results depend on the processing

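The number of the 10 genes past both thresholds, 5, depended on the setting. It was 2 under library size alone and 10 with an adjusted p alone. It was 1, 0 and 1 in limma on log2(FPKM + 1), on log2(FPKM + 0.1) and on log2(FPKM + 1) with no filter, where 7, 7 and 8 of the 10 were tested. Among all tested genes, 902 of 17537 were lower past both thresholds in the main fit and 733 of 17537 under library size alone. In the 3 FPKM fits these were 202 of 10084, 120 of 10084 and 113 of 13215. In these 3 fits the median over the tested ones of the 10 was -0.51, -0.57 and -0.47 in place of -0.91. There 16 of 37, 6 of 37 and 7 of 41 tested other ATF4 outputs were lower at an adjusted p under 0.05, in place of 39 of 41. ATF4 was reversed in these fits, at 0.37, 0.38 and 0.37, and CEBPB at 0.256 in the last. None of these values of ATF4 and CEBPB passed, and the cause of the ATF4 reversal was not tested. The CEBPB value came from a start listed in shNeuroD1 replicate 2 alone, at 0.426 FPKM against 0 in every other library. ATF5 and DDIT3 were not in these fits, as their starts were listed under other IDs. Deviations of libraries with the same number had a correlation of 0.0158 across genes. With 2 libraries per group this cannot show whether they share more than the number, and the labels do not say. With the replicate block 5 of the 10 genes were past both thresholds and the median was -0.91, and 899 genes were lower and 1511 higher among all tested. Leaving out 1 library gave medians of -0.96 to -0.92 for the 10 genes. Without shControl replicate 2, ATF5 and CEBPB, both at -0.98, lay just outside the limit of -1. Of 82 values of single genes fitted with all 4 libraries, 57 moved by less than the spread between libraries, 21 moved more and 4 changed sign. The spread is the root of the summed squared SDs of log2 CPM in the 2 groups, from 0.0355 in CEBPG to 0.724 in INHBE, and is not the SE. Of 40 values with 1 library left out, 39 moved by less, and INHBE went to -6.65 without shNeuroD1 replicate 1. With no filter DDIT3 had an adjusted p of 0.0771 and TRIB3 of 0.0666, and DDIT3 had 0.0524 with a mean of at least 1 CPM. DDIT3 had an adjusted p of 0.128, 0.136 and 0.229, and TRIB3 of 0.190, 0.0944 and 0.213, without shControl replicate 1, shControl replicate 2 and shNeuroD1 replicate 2.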
